A study of Homo sapiens with 16 samples.

Results

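After 4 h with 1 uM dexamethasone, RNA from polysome pool C was compared with RNA from polysome pool A in MM1.S cells, a human multiple myeloma line. The comparison was defined by 4 of the 16 arrays of the series, the columns N4C and X4C for pool C and N4A and X4A for pool A, and by all genes detected. Dexamethasone is a synthetic glucocorticoid that binds the glucocorticoid receptor, and all 4 arrays came from treated cells. The series also holds treated pool B, treated total RNA and the same 4 kinds of RNA at 0 h, called untreated here, with 2 arrays in each of its 8 groups. Within a group, one array has a column that starts with N and the other with X, and values are given in that order. Nothing in the sources used here says that they came from separate cultures, so the p-values measure the spread between arrays, which may be technical. The cells are 1 line, and where on the gradient each pool was taken is not given in these sources.

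Polysomes are messenger RNAs that carry several ribosomes. On a sucrose gradient, RNA and RNA-protein complexes separate by mass, so an mRNA with few ribosomes sediments apart from one with many. The number of ribosomes on an mRNA grows with the length of its coding sequence and with how often translation starts, and small noncoding RNAs are not translated at all. Plasma cells and the myelomas that arise from them make secreted protein in bulk and hold a large endoplasmic reticulum (ER) and much proteasome.

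On the 4 arrays, between 27.2% and 30.4% of 47323 probes were detected. The 2 arrays of a pool correlated at r = 0.977 across genes in pool A and 0.978 in pool C, and an array of pool C correlated with an array of pool A at r = 0.830 to 0.851. All 10 plasma cell markers, among them SDC1, TNFRSF17 and XBP1, were detected on all 4 arrays. Markers of B cells, T cells, myeloid cells and stromal cells were detected on none of the 4. Of the erythroid markers, HBB was detected on all 4 and HBA1 on none, and its part in any result was not tested. Among the arrays labelled 0 h, TSC22D3, DDIT4, FKBP5 and KLF9 were higher on the X than on the N array in each of the 4 kinds of RNA. These 4 are targets of the receptor, but not all targets followed. In total RNA at 0 h, DDIT4 stood at 9.94 on the N array and at 13.04 on the X array, beside 13.76 and 13.92 after treatment. TSC22D3 stood there at 10.11 and 12.42, beside 13.31 and 13.45. Of other listed targets in total RNA at 0 h, ZFP36 stood at 9.66 and 9.64 and MT2A at 6.27 and 5.97. In pools A, B and C at 0 h, both were higher on the X array. MT1X was higher on the X array in pools A and B and lower in pool C and total RNA. FZD4 was below the lowest signal detected on every array at 0 h. How many other targets followed was not counted. The 4 X arrays at 0 h thus do not match the N arrays of the same label for TSC22D3, DDIT4, FKBP5 and KLF9. The cause was not tested, and results that rest on these X arrays are given with and without these arrays.

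Of 10163 genes tested with limma, 5708 (56.2%) differed between treated pool C and treated pool A, 3372 of them higher in C (33.2%) and 2336 lower in C (23.0%), with Benjamini-Hochberg adjusted p under 0.05. Levels are log2 intensities after quantile normalization, and a difference is pool C minus pool A on that scale. Each difference is thus relative to the rest of the genes measured, and less RNA per cell and fewer cells cannot be told apart in such samples. The median difference of all genes was 0.21. The differences were lopsided in size. Beyond 8-fold there were 28 genes higher in C and 166 lower, by the fitted values. Of the 166, 46 were small nucleolar RNAs, 25 long noncoding RNAs, 8 small nuclear RNAs and 73 protein-coding. Of the 28, 27 were protein-coding and 1 was a transcribed pseudogene. With median scaling in place of quantile normalization, the median of all genes moved to 0.99 and the calls to 6066 higher and 1188 lower (83.6% of calls higher, against 59.1%), so directions below are read against the median of all genes. A pool was not above background for part of the genes. Pool A alone was at background on both arrays for 1196 genes, 740 of them called higher in C, and pool C alone for 587 genes, 419 of them called lower in C. For another 391 genes both pools were at background, with 9 called higher and 16 lower. The other 7989 were measured in both. Where 1 pool was at background a fold is given as a lower bound.

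**Figure D1:**
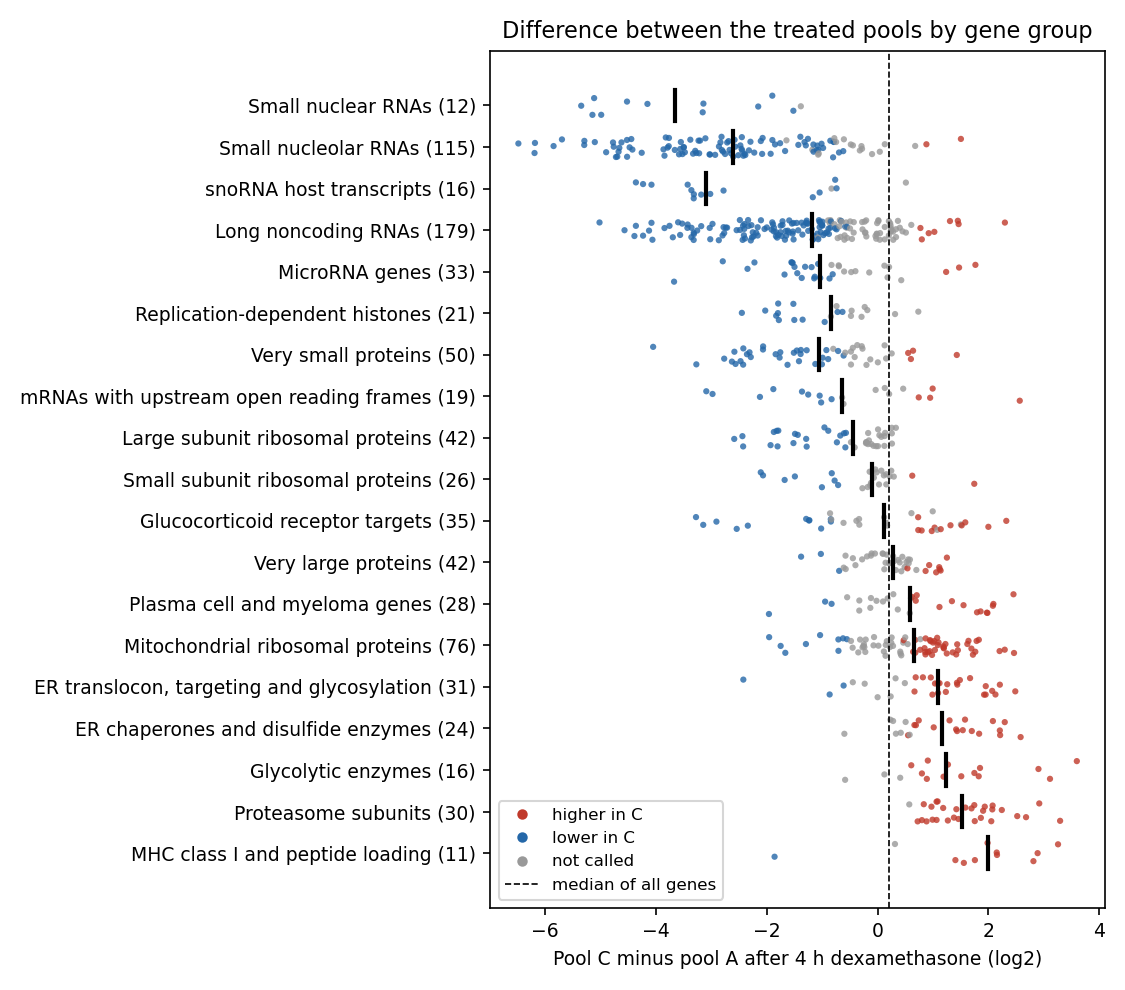
Each point is 1 tested gene, placed by its log2 difference between treated pool C and treated pool A, for 19 gene groups with the number of tested members in brackets. Black bars are group medians, the dashed line is the median of all genes (0.21), and colours show the call at an adjusted p of 0.05. Small nuclear and small nucleolar RNAs lie far to the left, with medians of -3.65 and -2.60, and proteasome subunits to the right, with a median of 1.52.

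Small nucleolar RNAs, which guide chemical modification of ribosomal and spliceosomal RNA in the nucleolus, were mostly lower in pool C. A probe annotated to such a gene may read the mature RNA, a precursor or a longer transcript, and these were not told apart. Of 115 tested, 97 were lower in C and 2 higher, with a median of -2.60, or -1.79 with undetected members at their bound. Of 279 small nucleolar RNA genes with a probe, 115 passed the filter on detection, and 84 would have passed without the pool A arrays. Of those 84, 75 were lower and 2 higher. On both treated arrays of a pool, 88 were detected in A and 14 in C. Box C/D RNAs, which guide methylation of ribose, were lower in 56 of 65, and box H/ACA RNAs, which guide formation of pseudouridine, in 41 of 49.

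SNORD96A, a box C/D RNA, stood at 12.34 and 12.24 on the pool A arrays and at 5.84 and 5.78 on the pool C arrays. Its difference of -6.48 ± 0.21 (standard error, limma adjusted p = 1.61e-09) was the largest of all genes by the fitted values. SNORD83B stood at 11.55 and 11.44 in pool A and was not above background in pool C, at 5.35 and 5.29. It was at least 58.3-fold lower in C (adjusted p = 5.92e-09). SNORD80 was at least 59.8-fold lower, from 11.44 and 11.63 in pool A to 5.19 and 5.50 in pool C (adjusted p = 2.76e-08). In each of these genes the gap between the pools was many times the gap between the arrays of a pool. SNORA61, a box H/ACA RNA, differed by -5.29 ± 0.31, from 12.05 and 12.45 to 6.66 and 7.28. The exceptions were few. SNORA11D stood at 7.17 and 7.06 in pool A and at 8.61 and 8.63 in pool C, 1.50 ± 0.22 higher (adjusted p = 8.86e-05). The other gene called higher, RNU105C, was above background in neither pool. SNORD96A and SNORD96B are near-identical copies, so their split is uncertain.

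Small nuclear RNAs of the spliceosome and other structural RNAs showed the same direction. Here too, mature RNAs and longer precursors were not told apart. Of 12 small nuclear RNAs, 11 were lower in C and 0 higher, and 8 would have passed the filter without pool A. RNU6-1, a U6 RNA of the catalytic core of the spliceosome, stood at 11.92 and 11.85 in pool A and at 7.35 and 7.39 in pool C, a difference of -4.52 ± 0.21 (adjusted p = 1.25e-08). RN7SK, which holds the elongation factor P-TEFb inactive, stood at 10.26 and 11.22 in pool A and was not above background in pool C. It was at least 34.5-fold lower (adjusted p = 8.66e-08). The Y RNA RNY1, a partner of the RNA-binding protein RO60, was at least 7.60-fold lower. RN7SL1, the RNA of the signal recognition particle that binds ribosomes at the ER, differed by -0.71 and was not called. Among 18 structural and nuclear noncoding RNAs of the list, 15 were lower and 0 higher. The U1 genes RNU1-3, RNVU1-7 and RNVU1-18 (fitted differences of -5.14, -5.11 and -4.98, RNVU1-7 being at least 28.0-fold lower) share sequence, so their split is uncertain.

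**Figure D2:**
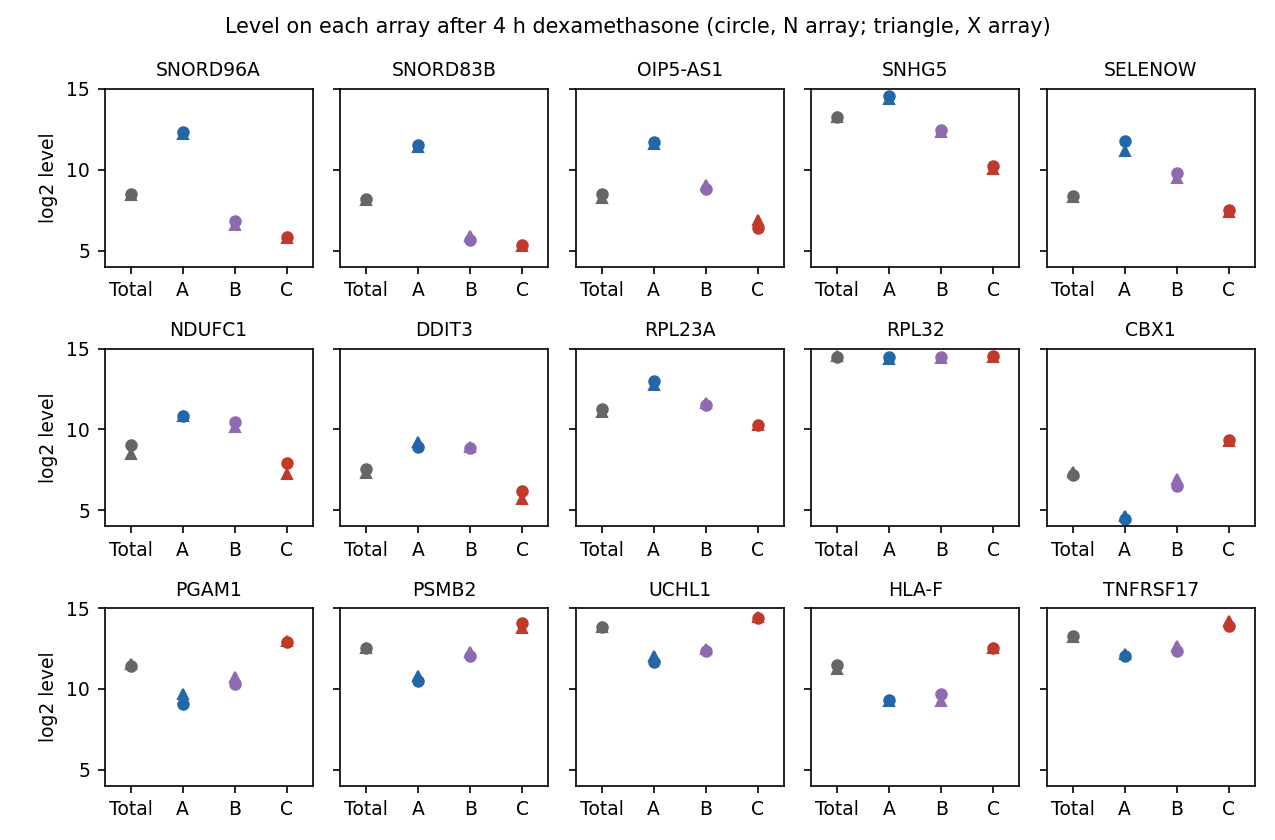
Log2 level of 15 genes on each array after 4 h of dexamethasone, in total RNA (grey) and pools A (blue), B (purple) and C (red), with circles for the N array and triangles for the X array. SNORD96A stands at 12.34 and 12.24 in pool A and at 5.84 and 5.78 in pool C, RPL32 lies between 14.37 and 14.52 in both pools, and CBX1 stands at 4.47 and 4.64 in pool A and at 9.33 and 9.27 in pool C.

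Most small nucleolar RNAs are cut from introns of other genes, and the RNAs were therefore set beside the genes around them. This comparison was chosen after values had been seen and has no test. By the RefSeq gene table, 95 of 115 lay inside exactly 1 protein-coding or long noncoding RNA gene, and the pairs used are those whose enclosing gene was tested as well. The table used holds no strand, and whether a probe read the mature small RNA or longer intron RNA was not determined. Of 57 small nucleolar RNAs inside 37 protein-coding genes, 49 were lower in C, with a median of -2.71. The 37 coding genes had a median of -0.45, with 16 lower, 4 higher and 17 not called. In 51 of the 57 pairs the small RNA had the lower difference. SNORD83B (fitted difference -6.18) lies in RPL3, a ribosomal protein gene of the large subunit that differed by 0.26 ± 0.20 (adjusted p = 0.281) and stood at 14.13 and 14.36 in pool A and 14.55 and 14.45 in pool C. SNORD14C (-5.69) lies in HSPA8, the constitutive cytosolic HSP70, at 0.04 ± 0.22. Several enclosing genes were, like RPL3, ribosomal protein genes, many of them very bright. Over all genes, the median absolute difference was 0.21 at mean levels of at least 14 and 0.80 below. Whether differences of bright enclosing genes were understated was not tested, and this limits the comparison of the pairs. SNORA84 (-3.76) lies in IARS1, the isoleucyl-tRNA synthetase, which was 0.79 ± 0.24 higher in C (adjusted p = 0.0131), a call lost without the pool A array N (0.58) or the pool C array X (0.64).

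Inside long noncoding RNA genes the pattern was another. Of 16 small nucleolar RNAs inside 8 such genes, 13 were lower, with a median of -2.18. The 8 enclosing genes had a median of -3.10, 7 of them lower, and the small RNA had the lower difference in 4 of 16 pairs. SNORD12 had a fitted difference of -1.32 and its enclosing gene ZFAS1 by -4.23. SNORA61 differed by -5.29 and SNHG12, around it, by -3.31. Several small RNAs share 1 enclosing gene, so the pairs are not independent.

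**Figure D3:**
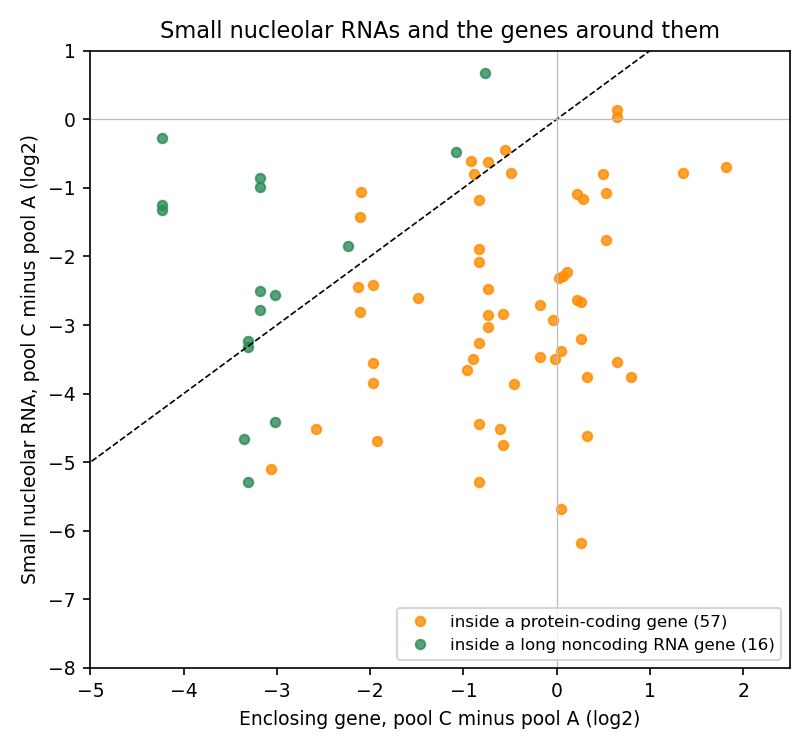
Each point is a small nucleolar RNA, placed by the log2 pool difference of the gene that encloses it (horizontal) and by its own (vertical), for 57 inside protein-coding genes and 16 inside long noncoding RNA genes. The dashed line marks equal differences. Most coding pairs lie below it (51 of 57), and 4 of 16 noncoding pairs do. Several enclosing coding genes are very bright, and whether their differences were understated was not tested.

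Long noncoding RNAs were lower in C in 116 of 179 and higher in 8, with a median of -1.19 (-0.94 with bounds), and 152 of the 179 would have passed the filter without the pool A arrays. The transcripts known as small nucleolar RNA hosts are spliced and exported but carry short or poor reading frames. Of 16 tested, 14 were lower in C and 0 higher, with a median of -3.10. SNHG5 stood at 14.60 and 14.40 in pool A and at 10.25 and 10.03 in pool C, a difference of -4.36 ± 0.24 (20.5-fold lower, adjusted p = 3.68e-08). ZFAS1 stood at 12.82 and 12.98 in pool A and at 8.51 and 8.83 in pool C (-4.23 ± 0.19). EPB41L4A-AS1 differed by -4.08 ± 0.18. Both arrays of pool A were above both of pool C in each of these 3. OIP5-AS1, a cytoplasmic long noncoding RNA, had the largest difference outside the small RNAs, from 11.69 and 11.58 to 6.38 and 6.87 (-5.01 ± 0.20, adjusted p = 5.92e-09).

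MicroRNAs are short RNAs that guide silencing complexes to mRNAs by their seed, bases 2 to 8. An array probe annotated to a microRNA gene may read the hairpin, its precursor or a longer host transcript, and these were not told apart. Of 33 microRNA genes tested of 561 with a probe, 19 were lower in C and 3 higher, with a median of -1.03 (-0.66 with bounds), and 25 would have passed the filter without pool A. The mature sequences of the genes with the largest called differences follow, from RefSeq on GRCh38.p14, written 5′ to 3′ with the seed in capitals, so that families can be seen. All but the last 3 lines belong to genes lower in C.
hsa-miR-330-3p: gCAAAGCAcacggccugcagaga
hsa-let-7d-5p: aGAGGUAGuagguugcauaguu
hsa-miR-607: gUUCAAAUccagaucuauaac
hsa-miR-488-3p: uUGAAAGGcuauuucuugguc
hsa-miR-300: uAUACAAGggcagacucucucu
hsa-miR-98-5p: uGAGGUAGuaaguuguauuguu
hsa-miR-1228-3p: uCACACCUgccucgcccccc
hsa-miR-657: gGCAGGUUcucacccucucuagg
hsa-miR-586: uAUGCAUUguauuuuuaggucc

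The let-7d and miR-98 sequences share the seed GAGGUAG of the let-7 family, which restrains growth-promoting mRNAs, and both of their genes were lower in C. MIRLET7D stood at 7.86 and 8.06 in pool A and was not above background in pool C, at 5.28 and 5.06 (at least 5.04-fold lower, adjusted p = 1.98e-06). MIR98 stood at 6.54 and 6.04 in pool A and at 4.80 and 4.67, below background, in pool C (at least 1.58-fold lower, adjusted p = 0.00033). No other seed was shared among the genes printed. MIR330 had the largest difference of the class, from 9.40 and 8.87 to a background level of 5.36 and 5.58 (at least 11.4-fold lower). MIR607 was at least 4.44-fold lower, MIR488 differed by -2.22 ± 0.24 and MIR300 by -1.68 ± 0.31. In the other direction MIR1228 was at least 2.18-fold higher in C, MIR657 at least 1.18-fold, and MIR586 differed by 1.24 ± 0.39 (adjusted p = 0.0164), a call lost without the X array of pool A (0.99) or of pool C (1.01).

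Ribosomal proteins, the protein part of the ribosome, are short, and their mRNAs carry a pyrimidine tract at the 5′ end through which mTORC1 controls their translation. Of 42 large subunit genes, 20 were lower in C and 0 higher, with a median of -0.45. Of 26 small subunit genes, 8 were lower (30.8%) and 2 higher (7.69%), with a median of -0.09. Of all genes, 23.0% were lower and 33.2% higher. By the deposited values, 33 large subunit genes were lower (median -0.77) and 17 small subunit genes (-0.59), and with the mean of a gene's probes 28 and 10 (-0.76 and -0.16). The large subunit median was -0.27 without the X array of pool C, and the small subunit median -0.034 without the X array of pool A. RPL23A stood at 12.97 and 12.75 in pool A and at 10.28 and 10.27 in pool C, a difference of -2.58 ± 0.19 (adjusted p = 4.64e-07). RPL14 differed by -2.44 ± 0.33, RPL37 by -2.42 ± 0.24 and RPS2 by -2.11 ± 0.23. The other probe of RPL37, at -0.77, was not called. RPS7 went the other way, from 10.29 and 10.72 in pool A to 12.37 and 12.13 in pool C (1.74 ± 0.26, adjusted p = 0.000109). FAU, the precursor of a small subunit protein, was 0.63 ± 0.19 higher (adjusted p = 0.0144), a call lost in the deposited value table (-0.03).

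The members that were not called were mostly very bright. Among the 40 ribosomal protein genes with a mean level of at least 14 over the 16 arrays, 4 were lower and 1 higher, with a median of -0.02. Among the 28 below 14, 24 were lower and 1 higher, with a median of -1.46. RPL32 stood at 14.47 and 14.37 in pool A and at 14.52 and 14.46 in pool C by its brightest probe (0.07), and its difference was -1.32 with the mean of its probes. The highest level of any gene on any array was 14.8. Over all genes, the median absolute difference was 0.21 in the 84 with a mean level of at least 14 and 0.80 in the other 10079. Whether signals near the top of the scale could show a difference was not tested. This split was added after values had been seen.

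**Figure D4:**
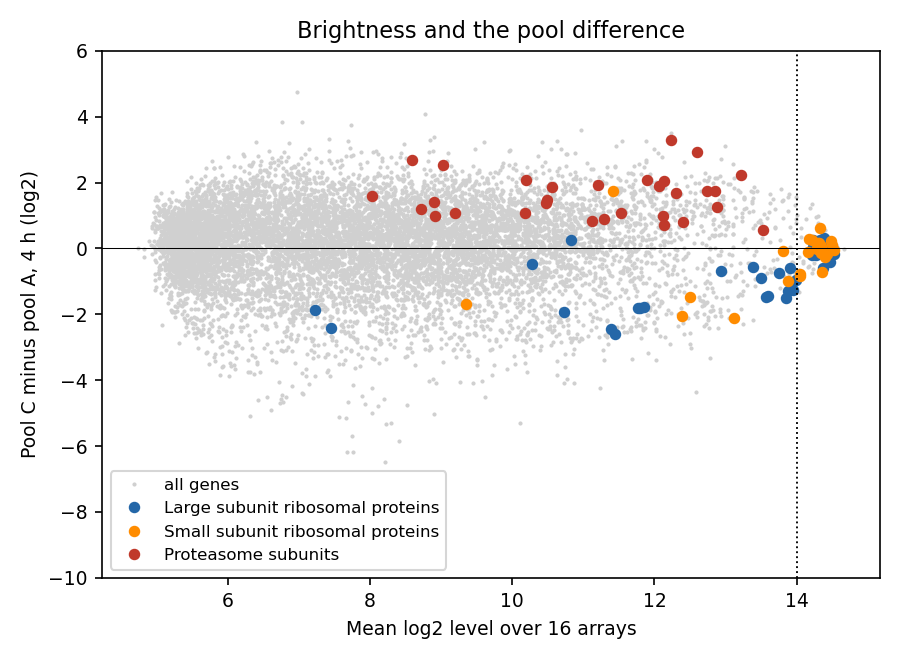
Log2 difference between treated pool C and pool A against the mean log2 level over 16 arrays, for all genes (light grey), ribosomal proteins of the large (blue) and small subunit (orange) and proteasome subunits (red). Right of the dotted line at 14 lie 40 ribosomal protein genes with a median of -0.02, and left of it 28 with a median of -1.46.

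The start of the ribosomal protein mRNAs was compared with that of all genes. The motif searched was C at the annotated start followed by at least 4 bases that are C or T, on the transcribed strand only. It stood in 41 of 58 ribosomal protein genes with a RefSeq window, in 5.66% of the 8086 tested protein-coding genes with a window, and in 4.04% of all 27305 windows. Within the ribosomal protein genes the median difference was -0.16 with the run and -0.11 without it. Among 8015 coding genes outside the ribosomal protein and elongation factor lists, it was 0.18 with the run and 0.28 without. The windows of 5 genes follow, 10 bases before the annotated start and 20 from it, on GRCh38.p14, with the run in capitals. They show that genes with the run were both lower in C and not called.
RPL14 (chr3:40457329-40457358, plus strand): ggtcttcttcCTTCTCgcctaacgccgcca
EEF1A1 (chr6:73521013-73521042, minus strand): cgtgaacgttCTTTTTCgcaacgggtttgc
EEF2 (chr19:3985444-3985473, minus strand): cgtcagcgttCTCTTCCgccgtcgtcgccg
TPT1 (chr13:45341164-45341193, minus strand): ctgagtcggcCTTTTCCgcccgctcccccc
RPS7 (chr2:3575250-3575279, plus strand): cgccctcctcctcgcgctgtttccgcctct

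RPL14 was lower in C (-2.44), and RPS7 was higher (1.74). In the RPS7 window the run from the annotated start holds 3 bases, short of the motif searched. C and T bases also stand directly before that start, so the window does not lack a pyrimidine stretch. The elongation factors EEF1A1 and EEF2, which deliver tRNA and move the ribosome, differed by -0.02 ± 0.18 and -0.33 ± 0.30. TPT1, the translationally controlled tumour protein, differed by -0.16 ± 0.17, and these 3 were not called. EEF1A1 stood between 14.66 and 14.72 on all 4 arrays and TPT1 between 14.32 and 14.50. Of 19 elongation factors and other mRNAs of this type, 8 were lower (42.1%) and 3 higher (15.8%), with a median of -0.30. Of all genes, 23.0% were lower and 33.2% higher. Under median scaling 4 were lower and 5 higher (median -0.13), and by the deposited values 11 were lower and 2 higher (-0.71), so the balance of calls in this list depends on the scaling. PABPC1, the cytoplasmic poly(A)-binding protein, stood at 13.82 and 14.34 in pool A and at 12.22 and 11.81 in pool C (-2.07 ± 0.26, adjusted p = 2.22e-05). EIF3H, a subunit of initiation factor 3, differed by -1.70 ± 0.20, while its partner EIF3K was 1.24 ± 0.23 higher.

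The respiratory chain is built from subunits of very different size and held members on both sides. Of 34 genes of complex I, 19 were higher in C (55.9%) and 6 lower (17.6%), and of 35 genes of complexes III to V, 19 were higher (54.3%) and 8 lower (22.9%). The shares of lower genes were at or below the 23.0% of all genes. For complexes III to V the deposited value table gave 16 higher and 12 lower. NDUFC1, a small accessory subunit of complex I, stood at 10.85 and 10.81 in pool A and at 7.89 and 7.24 in pool C (-3.27 ± 0.28, adjusted p = 1.13e-06). NDUFV1, the subunit that binds NADH, went from 10.28 and 10.12 to 12.13 and 12.43 (2.08 ± 0.27, adjusted p = 3.43e-05), and NDUFB8, another subunit, differed by 2.14 ± 0.18. In cytochrome oxidase, complex IV, COX6C differed by -0.99 ± 0.24 and COX5B by 1.86 ± 0.20. In complex III, the small subunit UQCR10 differed by -2.76 ± 0.28 and the core subunit UQCRC1 by 2.20 ± 0.24. In ATP synthase, the epsilon subunit ATP5F1E stood at 12.43 and 12.56 in pool A and at 10.27 and 9.78 in pool C (-2.47 ± 0.25), and the gamma subunit ATP5F1C was 1.86 ± 0.38 higher.

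A list of 50 mRNAs for very small proteins and a list of 42 for very large ones were written after values had been seen, so their counts are a description. Of the very small, 31 were lower in C and 4 higher, with a median of -1.06. Among the very large, 3 were lower, 8 higher and 31 not called, with a median of 0.27. Beside these, 33.2% of all genes were higher and 23.0% lower, with a median of 0.21. The very large were thus called less often than all genes in both directions, with a median close to that of all genes. Between pools C and A, a shift away from all genes was seen in the very small list only. The very large list was dim, with median levels of 6.68 and 6.84 in pool A and 6.85 and 7.16 in pool C. Its median difference was 1.59 for treated total RNA minus pool A, beside 0.16 for all genes. For pool C minus total RNA it was -1.32, beside 0.07. Whether signal near background hid differences between the pools was not tested. SELENOW, a small selenoprotein, stood at 11.79 and 11.19 in pool A and at 7.52 and 7.36 in pool C (-4.05 ± 0.27, 16.5-fold lower, adjusted p = 1.73e-07). OST4, a short membrane subunit of oligosaccharyltransferase, differed by -2.42 ± 0.18, and TIMM8B, TOMM5 and COX17, which act in import and assembly of mitochondrial proteins, by -2.58, -2.35 and -2.06. MIF, a small cytokine, was the exception of largest size, 1.43 ± 0.18 higher in C. Among the very large, DYNC1H1, the heavy chain of dynein, was 1.25 ± 0.23 higher and the growth kinase MTOR differed by -1.02 ± 0.27. MTOR was at 0.07 under median scaling, where the median of all genes was 0.99. Treated total RNA held DYNC1H1 at 9.69 and 9.64, above all 4 pool values of 5.70, 6.12, 7.05 and 7.27. No table of protein lengths was used, so no length was set against the differences over all genes.

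Proteasome subunits, which form the protease that degrades ubiquitin-tagged proteins, were higher in C almost without exception, 29 of 30 with 0 lower and a median of 1.52. PSMB2, a core subunit, stood at 10.46 and 10.79 in pool A and at 14.06 and 13.77 in pool C (3.29 ± 0.19, 9.79-fold, adjusted p = 5.99e-08). PSMB3 went from 11.14 and 11.23 to 14.15 and 14.06 (2.92 ± 0.18), and PSMD3, of the regulatory cap, differed by 2.68 ± 0.26. PSMB9, a subunit of the immunoproteasome, was 2.52 ± 0.32 higher. The remaining member, PSMB10, differed by 0.57 ± 0.26 (adjusted p = 0.0765).

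Glycolytic enzymes and the genes of antigen presentation by MHC class I were also higher, as lists added after values had been seen. Of 16 glycolytic genes, 13 were higher and 0 lower, with a median of 1.23. PGAM1, phosphoglycerate mutase, stood at 9.06 and 9.65 in pool A and at 12.91 and 12.98 in pool C (3.59 ± 0.27, 12.1-fold, adjusted p = 4.36e-07). TPI1, triosephosphate isomerase, differed by 3.11 ± 0.20 and the aldolase ALDOA by 2.90 ± 0.25. Of 11 class I genes, 9 were higher and 1 lower. HLA-F, a nonclassical class I heavy chain, stood at 9.31 and 9.22 in pool A and at 12.51 and 12.53 in pool C (3.25 ± 0.25, adjusted p = 5.58e-07). The other probe of HLA-F differed by 0.86. The peptide transporter TAP1 differed by 1.98 ± 0.22 and the light chain B2M by 1.56 ± 0.19. ERAP2, which trims peptides in the ER, was the member lower in C (-1.86 ± 0.35), by its brightest probe and not by the mean of its probes (0.05), and at -1.20 without the X array of pool C. HLA heavy chains and PGAM1 have near-identical copies that one probe may not separate.

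The secretory apparatus followed the same direction. Of 31 genes of the ER translocon, targeting and glycosylation, 22 were higher in C and 3 lower, with a median of 1.09, and of 24 ER chaperones and disulfide enzymes, 17 were higher and 0 lower, with a median of 1.16. SPCS3, a subunit of signal peptidase, stood at 7.56 and 7.66 in pool A and at 9.98 and 10.21 in pool C (2.48 ± 0.28, adjusted p = 9.02e-06). RPN2, of oligosaccharyltransferase, differed by 2.07 ± 0.24. Among the chaperones, the disulfide isomerase PDIA6 differed by 2.21 ± 0.30, and DNAJC3 was not above background in pool A and was at least 4.37-fold higher in C. Mitochondrial ribosomal proteins were higher in 39 of 76 and lower in 9, cytosolic chaperones higher in 15 of 23 and lower in 1, and nucleolar ribosome assembly genes higher in 15 of 29 and lower in 1. DNA replication genes were higher in 17 of 31 and lower in 4 (10 and 3 without the X array of pool C), mitotic genes in 15 and 6 of 33 (10 and 7 without that array), and RNA-binding and splicing proteins in 19 and 5 of 33. Aminoacyl-tRNA synthetases were higher in 9 of 18 and lower in 1, sterol synthesis and uptake genes likewise in 9 of 18 and 1, and mTORC1 and cap-binding genes in 10 and 4 of 24. Over all genes, 33.2% were higher and 23.0% lower. Mitotic genes (45.5% and 18.2%) and mTORC1 and cap-binding genes (41.7% and 16.7%) lay closest to that share.

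Of 28 plasma cell and myeloma genes, 13 were higher in C (46.4%) and 3 lower (10.7%), with a median of 0.59, beside 33.2% and 23.0% of all genes. TNFRSF17, the surface receptor BCMA, stood at 12.01 and 12.13 in pool A and at 13.91 and 14.20 in pool C (1.98 ± 0.20, adjusted p = 3.61e-06). The adhesion molecule CADM1 differed by 2.09 ± 0.22 and CD38, an ectoenzyme used as a drug target, by 1.79 ± 0.26. JCHAIN, which joins antibody multimers, was 1.55 ± 0.19 higher. The transcription factors were mixed. IKZF3 differed by -1.96 ± 0.38 and PRDM1 by -0.83 ± 0.20, both lower in C. PRDM1 turned positive under median scaling, at 0.33, where the median of all genes was 0.99. IKZF1, a relative of IKZF3, was 1.86 ± 0.54 higher (adjusted p = 0.0105), a call lost without the N array of either pool (1.37 without that of pool A and 1.31 without that of pool C). XBP1 was 0.62 ± 0.20 higher (adjusted p = 0.0156), a call lost in 7 alternative settings, at 0.05 in the deposited value table. IRF4 stood at 9.17 and 8.58 in pool A and at 8.83 and 9.29 in pool C, with overlapping arrays (0.18 ± 0.27, adjusted p = 0.59). MYC, the growth-promoting transcription factor, was 0.99 ± 0.20 higher in C (adjusted p = 0.00092), and its other probe, at 0.88, was not called.

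The genes with the largest differences upward outside these groups had diverse roles. CBX1, a heterochromatin protein that binds methylated histone H3, was not above background in pool A, at 4.47 and 4.64, and stood at 9.33 and 9.27 in pool C. It was at least 10.5-fold higher (adjusted p = 2.69e-08). HMGN5, a nucleosome-binding protein, stood at 6.03 and 6.999 in pool A and at 11.38 and 9.78 in pool C (4.07 ± 0.49, 16.8-fold). MACROD1, an ADP-ribosylhydrolase, and CD9, a tetraspanin, were not above background in pool A and were at least 7.70-fold and at least 7.66-fold higher. AP1S1, of a clathrin adaptor, differed by 3.76 ± 0.34, the membrane protein ITM2C by 3.51 ± 0.21 and the membrane protease ST14 by 3.39 ± 0.23. HNRNPL, a splicing regulator, was at least 4.36-fold higher, with 8.87 and 7.20 in pool C against 10.11 and 9.84 in treated total RNA.

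Some mRNAs carry short upstream reading frames that hold back ribosomes until stress makes them bypass these frames. Of 19 such mRNAs, 9 were lower in C (47.4%) and 4 higher (21.1%), beside 23.0% and 33.2% of all genes. Their median was -0.64, and 0.40 under median scaling, where the median of all genes was 0.99. DDIT3, the stress transcription factor CHOP, stood at 8.88 and 9.18 in pool A and at 6.19 and 5.70 in pool C (-3.09 ± 0.25, adjusted p = 6.92e-07). SLC35A4, a nucleotide sugar transporter with a translated upstream frame, went from 11.67 and 11.37 to 8.78 and 8.31 (-2.98 ± 0.32). ATF4, the main effector of the integrated stress response, stood at 14.04 and 13.61 in pool A and at 11.88 and 11.53 in pool C (-2.12 ± 0.29, adjusted p = 4.28e-05). PPP1R15A, which ends that response, differed by -1.88 ± 0.21. The deubiquitinase UCHL1 was the member highest in C, from 11.65 and 12.03 to 14.36 and 14.45 (2.56 ± 0.18).

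Immediate early and short-lived mRNAs were lower in C in 12 of 33 (36.4%) and higher in 5 (15.2%), beside 23.0% and 33.2% of all genes. Their median was -0.36, beside 0.21 for all genes. Under median scaling their median was of the opposite sign, at 0.36, beside 0.99 for all genes. It thus lay below that of all genes in both settings. ZFP36, which binds AU-rich elements and speeds mRNA decay, stood at 11.58 and 11.83 in pool A and at 8.24 and 8.63 in pool C (-3.27 ± 0.26, 9.67-fold lower, adjusted p = 6.1e-07). ID2, an inhibitor of basic helix-loop-helix factors, differed by -2.08 ± 0.43, a call lost under median scaling (-0.91). The other probe of ID2, at -0.98, was not called. Replication-dependent histone genes, whose mRNAs end in a stem-loop in place of a poly(A) tail, were tested in 21 of 63 listed. Of the 21, 12 were lower (57.1%) and 0 higher, with a median of -0.84. In 5 of them 1 pool was at background and the difference has a bound. How many passed the filter only through pool A was not counted. H2BC12 differed by -2.02 ± 0.37, a call lost under median scaling (-0.86), and histone genes share much sequence. The other probe of H2BC12, at -0.27, was not called. Zinc finger genes with ZNF symbols were lower in 99 of 258 (38.4%) and higher in 26 (10.1%), with a median of -0.43. Under median scaling it was 0.25, also below the 0.99 of all genes there. Of 11 iron and polyamine genes, 3 were higher (27.3%) and 4 lower (36.4%). FTL, the ferritin light chain, whose mRNA is held by an iron-regulated repressor, stood at 14.80 and 14.57 in pool A and at 12.52 and 12.49 in pool C (-2.18 ± 0.20).

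The genes listed as targets of the glucocorticoid receptor did not lie on 1 side. The list was chosen with earlier results of these data known, and control of its members by the receptor was not tested. Of 35 tested, 11 were higher in C and 11 lower (31.4% each), beside 33.2% and 23.0% of all genes. Their median was 0.12, beside 0.21 for all genes. Lower in C were, beside ZFP36, the Wnt receptor FZD4, from 9.62 and 8.39 in pool A to 6.72 and 6.20 in pool C (-2.54 ± 0.38, adjusted p = 0.0001), and SERTAD2, a transcriptional coregulator (-2.34 ± 0.21). The metallothioneins MT1X and MT2A, which bind zinc and copper, differed by -3.14 ± 0.37 and -2.90 ± 0.59. Of 4 metallothioneins tested, these 2 were lower, MT1F differed by 0.01, and MT1E was called higher (adjusted p = 0.005). MT1E was not above background in pool A, at 4.95 and 4.91, and was at least 1.12-fold higher in C, at 5.92 and 6.22, a call lost in the deposited value table. Members of this family share much sequence. DUSP1, a phosphatase of MAP kinases, was also lower (-1.29 ± 0.30), a call lost under median scaling (-0.32). Higher in C were HMCES, which shields abasic sites in DNA, from 10.76 and 10.61 to 12.85 and 13.16 (2.32 ± 0.20, adjusted p = 1.26e-06), the chromatin protein HMGB3 (2.00 ± 0.20) and the linker histone H1-10 (1.32 ± 0.19).

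The best-known targets were bright in both pools. TSC22D3, the leucine zipper that mediates part of the hormone's effect, stood at 12.56 and 12.77 in pool A and at 14.08 and 14.25 in pool C, with both C arrays above both A arrays. Its difference of 1.50 ± 0.80 was not called (adjusted p = 0.127). The fit took its error from all groups, among them the 0 h arrays on which the X array of this gene was above the N array (10.25 and 11.81 in pool A, 10.52 and 12.82 in pool C). Without the 4 X arrays at 0 h, an alternative added after seeing the data, the difference was again 1.50, with a standard error of 0.20. The arrays left out are those on which this gene stood apart, so the smaller error was set by that choice and is no separate test. DDIT4, an inhibitor of mTORC1, differed by 0.995 and the receptor co-chaperone FKBP5 by 1.08. Neither was called with all arrays (limma adjusted p = 0.457 and 0.105). KLF9, a transcription factor, differed by -0.61. For these genes too, calls from the fit without the X arrays are not used. The pool A and C arrays after treatment did not overlap for TSC22D3, DDIT4, FKBP5 and KLF9. TXNIP, an inhibitor of thioredoxin and glucose uptake, was 0.73 ± 0.19 higher in C (adjusted p = 0.0051), a call lost in the deposited value table at 0.27. The receptor itself, NR3C1, stood at 6.52 and 4.76 in pool A and at 7.57 and 7.65 in pool C (1.97 ± 0.44, adjusted p = 0.00197), and only the first of the pool A arrays was above background. Without the X array of pool A the difference of NR3C1 was 1.09 (adjusted p = 0.0217). Beside 33.2% and 23.0% of all genes, 2 of 15 BCL2 family genes were higher in C (13.3%) and 4 lower (26.7%). Their median was -0.29. Under median scaling it was 0.59, where the median of all genes was 0.99. Among these regulators of cell death, BMF was 1.60 ± 0.39 higher and HRK differed by -1.87 ± 0.37, a call lost under median scaling (-0.76) and a value of -1.13 without the X array of pool C. BCL2L11, the killer protein BIM, differed by -0.84 ± 0.26 by its brightest probe (adjusted p = 0.0145), a call lost in the deposited value table (-0.40). Its other probes, at 0.14 and -0.24, were not called. Under median scaling the difference of BCL2L11 was of the opposite sign (0.32), though below the 0.99 of all genes there. MCL1, which protects myeloma cells from death, differed by -0.11 and was not called.

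At 0 h, the same pools differed in much the same way. Between untreated pools C and A, which share no array with the treated ones, 5637 genes (55.5%) were called, 3465 higher (34.1%) and 2172 lower (21.4%). Of the genes higher after treatment, 2818 were also higher before it (83.6% of the treated list and 81.3% of the untreated one). Of those lower after treatment, 1867 were lower before it (79.9% and 86.0%). Genes called in opposite directions numbered 3 among those higher after treatment and 4 among those lower. The differences at 4 h and 0 h correlated across 10163 genes at r = 0.932, as a description across genes that share probes and background. Small nucleolar RNAs had a median of -2.84 at 0 h, proteasome subunits of 1.40 and very small proteins of -1.03. Without the 4 X arrays at 0 h, which leaves 1 array a group there and takes its spread from the other groups, 4062 genes were called at 0 h. Of the genes higher after treatment 2063 (61.2%) were then also higher at 0 h, and of the genes lower 1473 (63.1%), with r = 0.900. The 3 medians were then -2.88, 1.22 and -0.78.

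The test of the change itself, the treated minus the untreated pool difference, called 0 of 10163 genes (0%) with limma, and 590 (5.81%) had an unadjusted p under 0.05. In each gene list, 0 members were called. Without the 4 X arrays at 0 h it also called 0 genes, with 789 at an unadjusted p under 0.05. The 3 genes with the smallest p in each direction are given as values. TRIM31, a ubiquitin ligase, stood at 8.11 and 8.32 in treated pool A and was not above background in treated pool C (5.11 and 4.98). At 0 h it stood at 4.81 and 5.34 in pool A and at 4.99 and 4.61 in pool C, each below the lowest signal detected on its array. It was at least 6.01-fold lower in treated pool C, and the fitted change of -2.89 had an adjusted p of 0.100. DKKL1, a relative of the dickkopf proteins, stood at 6.50 and 6.04 in treated pool A and was not above background in treated pool C, where it was at least 1.56-fold lower. Its fitted difference at 0 h was 0.57, but there too both pools were below the lowest signal detected. FAM200C had differences of 0.59 at 0 h and -0.98 at 4 h (-0.21 and not called under median scaling). In the other direction, GSDME, a pore-forming gasdermin, was not above background in treated pool A (5.36 and 5.39) and was at least 1.70-fold higher in treated pool C (6.67 on both arrays), with a difference of -0.34 at 0 h. ZNF76, a zinc finger protein, had -0.91 at 0 h and 1.00 at 4 h, and UNC119B, a lipid-binding trafficking protein, -0.66 and 0.63. The 4 h call of ZNF76 was lost without the N array of pool A (0.53), without the X array of pool C (0.91) and in the deposited value table (0.35). That of UNC119B was lost without the X array of pool A (0.49) or without either pool C array (0.62 and 0.64). Without the 4 X arrays at 0 h, the 0 h difference was 0.18 for TRIM31, 0.60 for DKKL1 and 0.57 for FAM200C. It was -0.53 for GSDME, -0.97 for ZNF76 and -0.66 for UNC119B. FZD4, named after its values were seen, had -0.26 at 0 h (-0.55 without the X arrays there) and -2.54 at 4 h. At 0 h pool A stood at 5.09 and 4.76 and pool C at 4.55 and 4.79, each below the lowest signal detected on its array. The 0 h differences of TRIM31, DKKL1 and FZD4 are thus read at background and do not show how the pools differed then.

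**Figure D5:**
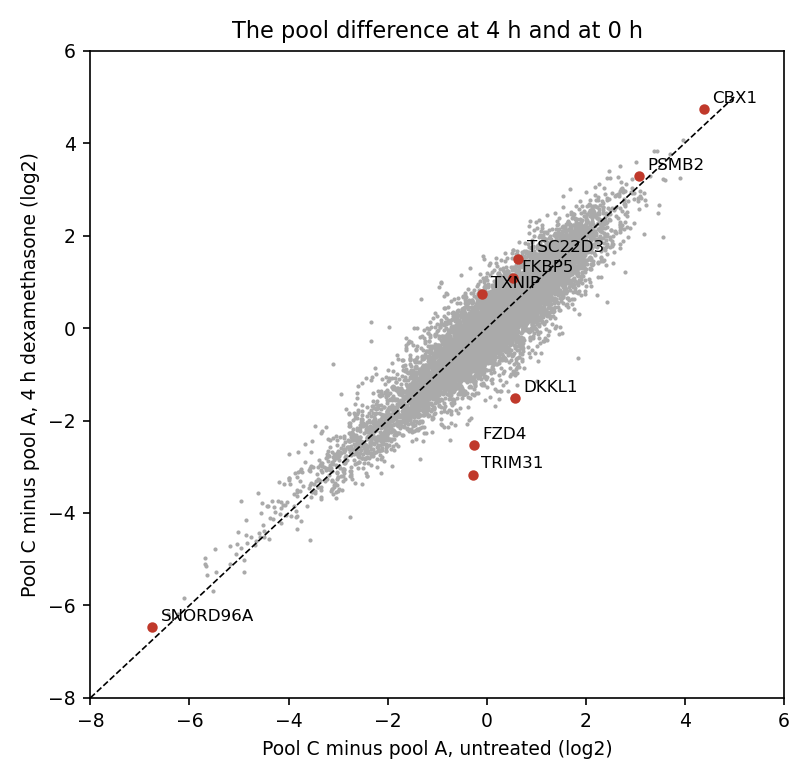
Log2 difference between pools C and A after 4 h of dexamethasone (vertical) against the same difference at 0 h (horizontal), with 1 point per tested gene (10163) and 9 genes named in red. The dashed line marks equal differences. TRIM31 and FZD4 lie below it, at fitted values of -3.17 and -2.54 after treatment, and no gene passed the test of the change. At 0 h both genes were at background in both pools.

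Treated pool B was set beside both. It shares its comparisons' arrays with the treated contrast above, so the values are set side by side only. Pool C against B called 4665 genes (45.9%) and pool B against A 2560 (25.2%). Small nucleolar RNAs had a median of -2.24 between B and A and of -0.27 between C and B, but 14 of 115 were detected on both treated C arrays, so the second value is largely read at background. Proteasome subunits had 0.05 and 1.65, glycolytic enzymes -0.12 and 1.45, and class I genes 0.19 and 1.77. Very small proteins had 0.31 between B and A and -1.45 between C and B, and the small nucleolar RNA hosts -0.61 and -2.33. SNORD96A stood at 6.85 and 6.57 in pool B, near its 5.84 and 5.78 in pool C. NDUFC1 stood at 10.45 and 10.15 in pool B, near its 10.85 and 10.81 in pool A, and ATP5F1E at 13.02 and 12.85, slightly above pool A. PSMB2 stood at 12.05 and 12.27 in pool B, between the other pools. In treated total RNA, SNORD96A was at 8.49 and 8.47, PSMB2 at 12.53 on both arrays and ATF4 at 13.27 and 13.24, each between pools A and C.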

How the data were processed

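RNA of polysome pools A and C from MM1.S cells after 4 h of dexamethasone was compared, within a fit to all 16 arrays. The deposited non-normalized table gives 47323 probes, each with a linear intensity and with a detection p-value on every array, per the file headers. The deposited value table holds log2 values normalized by the authors, by a method that the sources used here do not give. Its scale was read from its values, and each array correlated best with a column of its own group. The N arrays matched replicate 1 and the X arrays replicate 2. Its column medians lay between 7.21 and 7.41, and whether genes were centred is not known. Per the labels, the pools were cleaned of sucrose by precipitation and phenol and labelled by amplification with biotin.

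From these intensities, background was corrected with normexp (nec of limma 3.58.1 in R 4.3.3, on detection p-values, offset 16), and the arrays were quantile-normalized and put on a log2 scale. Folds of dim genes are therefore understated. Probes were kept with a detection p-value under 0.01 on at least 2 arrays (17269), and of these 13289 had 1 gene symbol in the platform annotation. The brightest probe stood for each of the 10163 genes. Of 2550 genes with several probes, 1480 were called in the treated contrast, 75 of them with a probe called the opposite way. The kept 3980 probes without a single symbol were tested apart. Limma fitted 8 group means (8 residual and 5.1 prior degrees of freedom), with 2 arrays a group, with Benjamini-Hochberg adjustment of p over all genes. The number of arrays limits the precision. Errors are standard errors. A gene detected on no array of a pool has a bound, "at least", for which its level on an array was raised to the lowest signal detected there if it was below it.

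The members, gene lists, alternatives and naming rule were chosen with earlier results of these data known. The rule took the 15 largest called differences each way with arrays that did not overlap, up to 4 members per list, the 3 smallest p each way for the change, and TSC22D3, FKBP5, DDIT4, TXNIP, KLF9, NR3C1, BCL2L11, MYC, IRF4, XBP1, ATF4 and MCL1. Other genes named were chosen after their values were seen, and the part of the rule that used protein length was not applied. Sequences are from RefSeq (GRCh38.p14), which held 31 of the 33 microRNA genes. The method was tested on simulated data. Column letters and replicate numbers were not taken as pairs. Between pools A and C, deviations correlated at -0.08 by letter and -0.06 by number after treatment, and at 0.30 and 0.34 at 0 h, with 2 pairs each. Letter and number group the arrays alike, so these are not separate checks of the pairing.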

Additional observations from a re-analysis of the deposited data

How the results depend on the processing

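Between treated pools C and A, 5171 to 7254 genes were called across the processing alternatives and 4645 to 5065 without 1 array, against 5708. The labels gave the groups the same replicate numbers but no shared source. A replicate block by column letter gave 6255 calls, and in the deposited value table the block by replicate number gave 5936 against 5276 without it. Of 187 named genes that were called, 157 kept the call in all 16 settings. The change with treatment called 1 gene with an offset of 50 and 1 with the block by column letter. It called 0 to 7 genes without 1 array, the 7 without the N array of untreated pool A. Pool B against pool A called 1484 to 1858 genes without 1 array. Without the 4 X arrays at 0 h, the treated contrast called 5893 genes and that at 0 h 4062. The share of calls higher in C at 0 h was 77.0% in the deposited table and 87.7% under median scaling. For C against B it was 84.3% and 87.3%, and for B against A 15.2% and 66.3%.

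Under median scaling, which moved the median of all genes to 0.99, medians turned positive for upstream frame mRNAs (0.40), immediate early genes (0.36), the BCL2 family (0.59) and ZNF genes (0.25). Each of these medians stayed below that of all genes. The same setting turned KLF9 (0.65), BCL2L11 (0.32), MCL1 (1.13), EEF1A1 (0.071), MTOR (0.071) and PRDM1 (0.33). In the deposited table, with and without the replicate block, the sign turned for iron and polyamine genes (-0.047), MCL1 (0.27), RPL32 (-0.35), RPL3 (-0.25), HSPA8 (-0.18), FAU (-0.032) and PSMB10 (-0.075). With the mean of a gene's probes it turned for HNRNPA2B1 (-0.52), MCL1 (0.10), RPL32 (-1.32) and ERAP2 (0.048). The median of glucocorticoid receptor targets was -0.10 with the stricter filter. Without 1 array it ran from -0.054 to 0.22, that of iron and polyamine genes from -0.0034 to 0.20, IRF4 from -0.11 to 0.47, MCL1 from -0.23 to 0.0087, HSPA8 from -0.17 to 0.26, EEF1A1 from -0.050 to 0.011 and EEF2 from -0.80 to 0.15. Medians of dim classes shrank without background correction and in the deposited table, for small nucleolar RNAs to -0.96 and -0.98, for small nuclear RNAs to -2.03 and -1.97 and for long noncoding RNAs to -0.43 and -0.44. The causes were not tested. Protein length was not used as an alternative, since no protein table was at hand. Signal near background or near the top of the scale limits the folds.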

Other observations

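Of the kept probes, 3980 had no single gene symbol and were tested apart from the genes. In treated pool C against treated pool A, 1398 were lower and 773 higher (54.5% called), with a median of -0.31, whereas the named genes had a median of 0.21. What these probes read was not determined. Among genes with several probes, 75 called genes had another probe called the opposite way, and HNRNPA2B1, a splicing and RNA-transport protein, had 3 such probes. The pool difference of HNRNPA2B1 was read from its brightest probe and was of the opposite sign (-0.52) with the mean of its probes.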
